A study of Arabidopsis thaliana with 3 samples.

Results

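The cuticle of Arabidopsis is built from cutin, waxes and other derivatives of long and very long acyl chains, and 46 of its genes were examined here among 27444 nuclear protein-coding genes. The 46 genes were listed by locus and comprise 18 genes of acyl chain elongation, 5 of wax synthesis, 12 of cutin or suberin synthesis, 2 of acyl-CoA activation, 4 of lipid export and 5 MYB regulators. The list was chosen by pathway with the peak positions of these libraries already known, so the peaks at its genes are a description and carry no test. A gene is called bound in a library when a peak overlaps by at least 1 bp the region from 1 kb upstream of its transcription start site (TSS) to its transcription termination site (TTS).

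AIPP3 is a BAH domain protein that was examined as a reader of H3K27me3, the repressive trimethyl mark on lysine 27 of histone H3. Its sites were mapped by chromatin immunoprecipitation and sequencing (ChIP-seq) with a Myc antibody from Millipore. The groups were AIPP3-4Myc seedlings, with 2 libraries numbered replicate 1 and replicate 2, and Col-0 seedlings without a tagged protein, with 1 library that gives the background of the antibody. All were whole seedlings 13 days old in the Col-0 ecotype, raised at 23 °C on sucrose medium with days of 16 h light. Per the study's methods, the genomic AIPP3 sequence with its native promoter was joined to the tag and put into the corresponding mutant, whose T-DNA allele is aipp3-1, and plants of the third transgenic generation were used. The AIPP3-4Myc plants thus differ from Col-0 in the T-DNA insertion and the transgene as well as in the tag. The short sample descriptions give the AIPP3-4Myc libraries different codes, so whether they share a transgenic line, a culture or a day is unknown. Whole seedlings mix epidermis, the tissue that makes the cuticle, with root and inner tissues.

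On chromosomes 1 to 5 the lists held 926 peaks in AIPP3-4Myc replicate 1 and 430 in AIPP3-4Myc replicate 2, against 16 in Col-0. Read numbers were not analysed here, so the depth behind each list is unknown, and scores are ranked only within a list. A gene without a peak is a gene whose signal did not pass the authors' threshold, which is not a lack of binding. Whether the peak caller was given the Col-0 or an input library as a control is not stated, so the absence of Col-0 peaks at a gene is likewise only the outcome of that threshold. No test between the genotypes was made, since exchanging the labels of 2 libraries and 1 in an exact permutation test could reach 0.333 at best.

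Very-long-chain acyl groups are made on the endoplasmic reticulum by a multi-enzyme elongase. A 3-ketoacyl-CoA synthase (KCS) condenses the chain with malonyl-CoA and sets its length, and a ketoacyl reductase, a dehydratase and an enoyl reductase complete the cycle. Waxes then form by an alkane branch and an alcohol branch. Cutin is a polyester of shorter hydroxylated acyl chains. Cytochromes P450 of the CYP86A subfamily place the terminal hydroxyl group, glycerol acyltransferases (GPAT) link the chains to glycerol, and transporters with lipid transfer proteins carry monomers and waxes to the surface. Suberin is a related polyester of root and wound tissue.

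Among the 46 genes, 2 had a peak in both AIPP3-4Myc libraries: KCS1 (AT1G01120) and CYP86A7 (AT1G63710). Sequence from beneath these peaks is shown to place them in the gene. For each gene the 300 bases at the centre of the interval covered in both libraries are given in the direction of transcription, read from the RefSeq sequence of the TAIR10.1 assembly, whose nuclear coordinates are those of TAIR10. Both windows lie within a coding exon, and capitals mark a match to GAGAGA or its reverse complement, the GAGA motif of plant Polycomb response elements. The KCS1 window is chr1:58091-58390 on the minus strand, 825 to 1124 bp from the TSS. The CYP86A7 window is chr1:23633050-23633349 on the minus strand, 724 to 1023 bp from the TSS.
KCS1: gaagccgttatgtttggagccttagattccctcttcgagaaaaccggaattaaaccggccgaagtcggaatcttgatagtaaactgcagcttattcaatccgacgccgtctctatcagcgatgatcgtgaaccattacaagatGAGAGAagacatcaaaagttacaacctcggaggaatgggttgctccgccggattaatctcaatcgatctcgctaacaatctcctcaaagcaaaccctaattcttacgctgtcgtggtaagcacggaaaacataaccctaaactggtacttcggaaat
CYP86A7: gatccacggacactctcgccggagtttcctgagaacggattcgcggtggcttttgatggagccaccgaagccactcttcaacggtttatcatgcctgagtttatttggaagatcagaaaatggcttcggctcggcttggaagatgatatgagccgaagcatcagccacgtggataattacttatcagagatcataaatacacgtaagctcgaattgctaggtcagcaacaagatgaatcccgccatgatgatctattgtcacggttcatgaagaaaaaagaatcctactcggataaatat
The KCS1 window held 1 match and the CYP86A7 window 0. Over the whole shared interval KCS1 had 7 matches in 1706 bp and CYP86A7 had 0 in 2141 bp, so the motif was not common to the loci bound in both libraries. GC made up 45% of the KCS1 window and 45.3% of the CYP86A7 window.

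In AIPP3-4Myc replicate 1, 7 of the 46 genes (15.2%) were bound, beside 5.11% of all protein-coding genes. In AIPP3-4Myc replicate 2, 2 genes (4.35%) were bound, beside 2.28% of all, and the same 2 genes were bound in both libraries, beside 1.67% of all. In Col-0 none of the 46 was bound, beside 0.0547% of all, or 15 protein-coding genes. Since the list was drawn up with these peaks known, nothing is read from these shares. The bound genes fell in 2 of the 6 steps. Cutin and suberin synthesis had 6 of 12 genes bound in replicate 1 (50%) and 1 of 12 in replicate 2 (8.33%), and elongation had 1 of 18 (5.56%) in each. Wax synthesis, activation, export and the MYB regulators had none in any library. The 7 genes rested on 6 peaks, because CYP86A4 and GPAT4 share a peak.

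**Figure D1:**
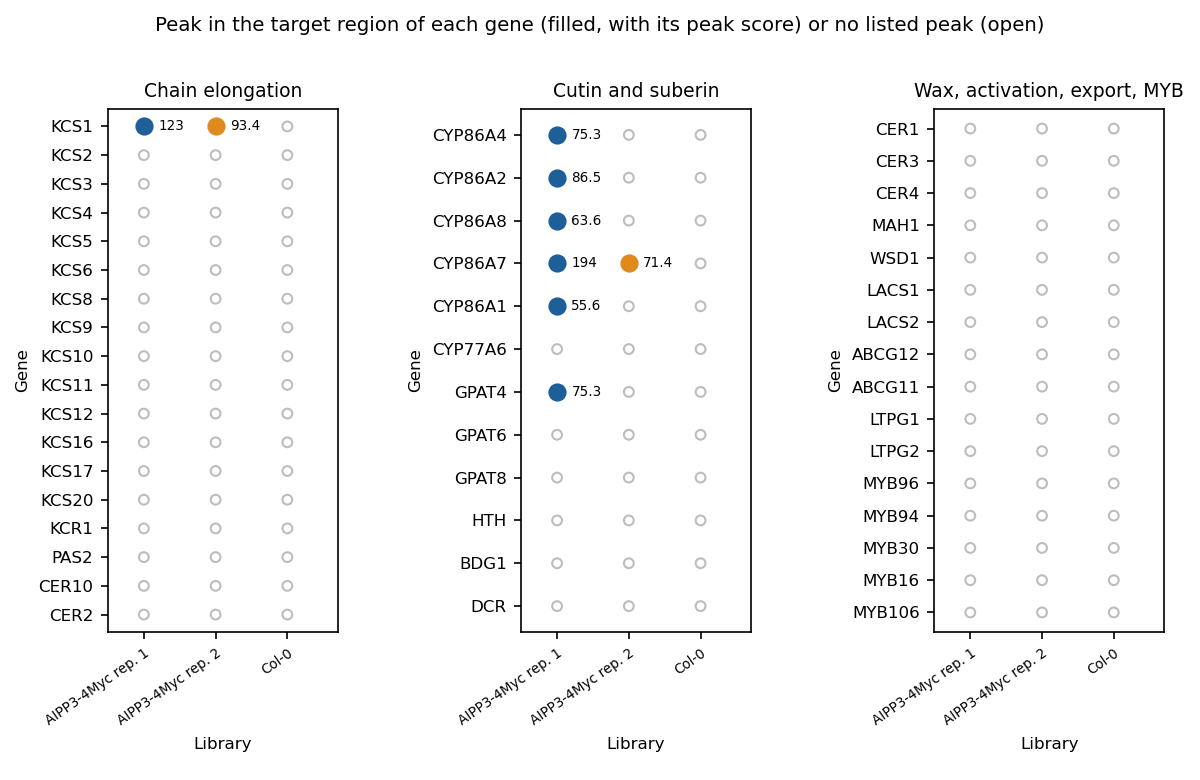
Peaks at the 46 cuticle genes (rows) in each library (columns), with filled circles for a peak in the target region, its score beside it, and open circles for no listed peak. KCS1 and CYP86A7 have a peak in both AIPP3-4Myc libraries. A further 5 genes of cutin or suberin synthesis have one in replicate 1 only, and the Col-0 column is empty.

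KCS1, a condensing enzyme of the elongase that contributes to wax, was the only bound gene of the elongation step. In AIPP3-4Myc replicate 1 its peak ran over chr1:57325-59120 (1796 bp) with a score of 123, rank 134 of 926. In AIPP3-4Myc replicate 2 the peak ran over chr1:57388-59093 (1706 bp) with a score of 93.4, rank 135 of 430. Both peaks thus stood in the upper part of their lists, at the 85.6 percentile in replicate 1 and the 68.8 percentile in replicate 2. KCS1 occupies chr1:57164-59215 on the minus strand and has 1 coding exon. The midpoints lay 993 and 975 bp from its TSS in replicates 1 and 2, in the coding sequence. The peaks began 95 and 122 bp after the TSS and covered 87.5% and 83.1% of the gene, so neither reached the region upstream. No other gene was touched, and Col-0 had no peak there.

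The other 13 listed KCS genes had no peak in any library. They include KCS6 (AT1G68530), the main condensing enzyme of stem wax, its near relative KCS5 (AT1G25450), KCS2 (AT1G04220) and KCS20 (AT5G43760), which act in root suberin, and KCS10 (AT2G26250), known as FIDDLEHEAD, which keeps floral organs apart. The remaining ones were KCS3 (AT1G07720), KCS4 (AT1G19440), KCS8 (AT2G15090), KCS9 (AT2G16280), KCS11 (AT2G26640), KCS12 (AT2G28630), KCS16 (AT4G34250) and KCS17 (AT4G34510). Of all 21 KCS genes named in RefSeq, KCS1 was the only bound gene (4.76%, beside 5.11% of all protein-coding genes in replicate 1). It was also the only one bound in replicate 2 and in both libraries, beside 2.28% and 1.67% of all protein-coding genes. The rest of the elongase likewise lacked a peak: the ketoacyl reductase KCR1 (AT1G67730), the dehydratase PAS2 (AT5G10480), the enoyl reductase CER10 (AT3G55360) and CER2 (AT4G24510), a partner protein that lets the condensing enzyme reach the longest chains.

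CYP86A7, a member of the fatty acid omega-hydroxylase subfamily, carried the highest score of the cuticle genes in AIPP3-4Myc replicate 1. There its peak ran over chr1:23632008-23634343 (2336 bp) with a score of 194, rank 47 of 926. In AIPP3-4Myc replicate 2 the peak ran over chr1:23632129-23634269 (2141 bp) with a score of 71.4, rank 232 of 430. The order of the 2 genes was therefore not the same in the libraries: CYP86A7 ranked above KCS1 in replicate 1 and below it in replicate 2. CYP86A7 occupies chr1:23632178-23634073 on the minus strand, with 1 coding exon. Its peaks covered the whole gene in both libraries, beginning at -270 and -196 bp relative to the TSS and ending 170 and 49 bp past the gene in replicates 1 and 2. The midpoints were 898 and 874 bp from the TSS, in the coding sequence. Col-0 had no peak there.

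**Figure D2:**
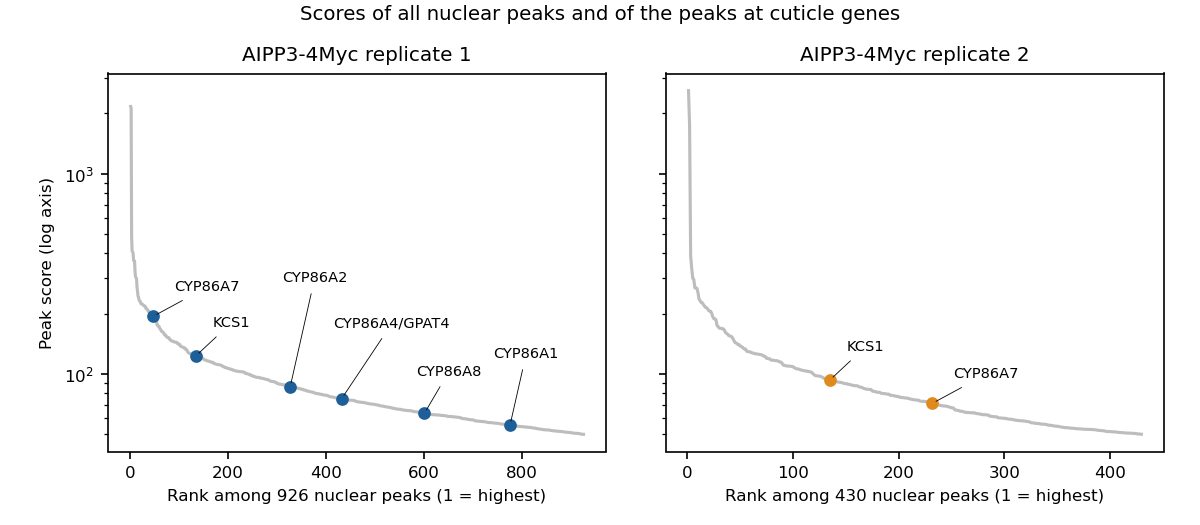
Scores (log axis) of all nuclear peaks against their rank in AIPP3-4Myc replicate 1 (left) and replicate 2 (right), with the peaks at cuticle genes as coloured points. The 6 peaks of replicate 1 spread from rank 47 to rank 776 of 926, and the 2 peaks of replicate 2 stand at ranks 135 and 232 of 430.

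All 5 genes of the CYP86A subfamily were bound in AIPP3-4Myc replicate 1, and CYP86A7 alone was bound in AIPP3-4Myc replicate 2. The subfamily was singled out after its peaks were seen. CYP86A2 (AT4G00360), which acts in leaf cutin, had a score of 86.5 (rank 327). CYP86A4 (AT1G01600), an enzyme of floral cutin, had 75.3 (rank 432), and CYP86A8 (AT2G45970), known as LACERATA, had 63.6 (rank 601). CYP86A1 (AT5G58860), the hydroxylase of root suberin, had the lowest score with 55.6 (rank 776), at the 16.3 percentile of that list. Replicate 2 had no peak at these 4 genes, and the nearest replicate 2 peaks were 15204 bp from the CYP86A2 region, 35389 bp from CYP86A4, 43676 bp from CYP86A1 and 47626 bp from CYP86A8. Their 4 replicate 1 peaks spanned scores of 55.6 to 86.5. Of all 450 replicate 1 peaks in that range, 101 (22.4%) had a counterpart in replicate 2, so most peaks of such scores lacked one throughout the genome.

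Among the 214 other genes with a CYP symbol in RefSeq, 17 (7.94%) were bound in AIPP3-4Myc replicate 1, 10 in replicate 2 and 7 in both, against 1 in Col-0. Over all protein-coding genes 5.11% were bound in replicate 1, 2.28% in replicate 2 and 1.67% in both. Those unbound include the listed cutin hydroxylase CYP77A6 (AT3G10570), which adds the mid-chain hydroxyl group.

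The peaks of the subfamily lay over the genes rather than upstream of them. The peak at CYP86A4 (chr1:218719-221865, 3147 bp), that at CYP86A1 (chr5:23765706-23768260, 2555 bp) and that at CYP86A7 covered 100% of the gene. The CYP86A2 peak (chr4:160661-163014, 2354 bp) also touched the target regions of 3 other genes, 1 of them coding (AT4G00370). It began 18 bp after the TSS of CYP86A2, stopped 9 bp short of that gene's end and covered 98.9% of it. The CYP86A8 peak was the exception. It ran over chr2:18913085-18915856 (2772 bp), began at -1117 bp relative to the TSS, covered 62.6% of the gene and had its midpoint 269 bp from the TSS, outside the coding sequence. The other midpoints lay 1128 bp from the TSS in CYP86A1, 1194 bp in CYP86A2 and 1458 bp in CYP86A4, all in coding sequence. In width the 5 peaks stood between the 81.3 and the 94.3 percentile of the replicate 1 list, which had a median of 1724 bp, while the KCS1 peak stood at the 55.3 percentile.

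**Figure D3:**
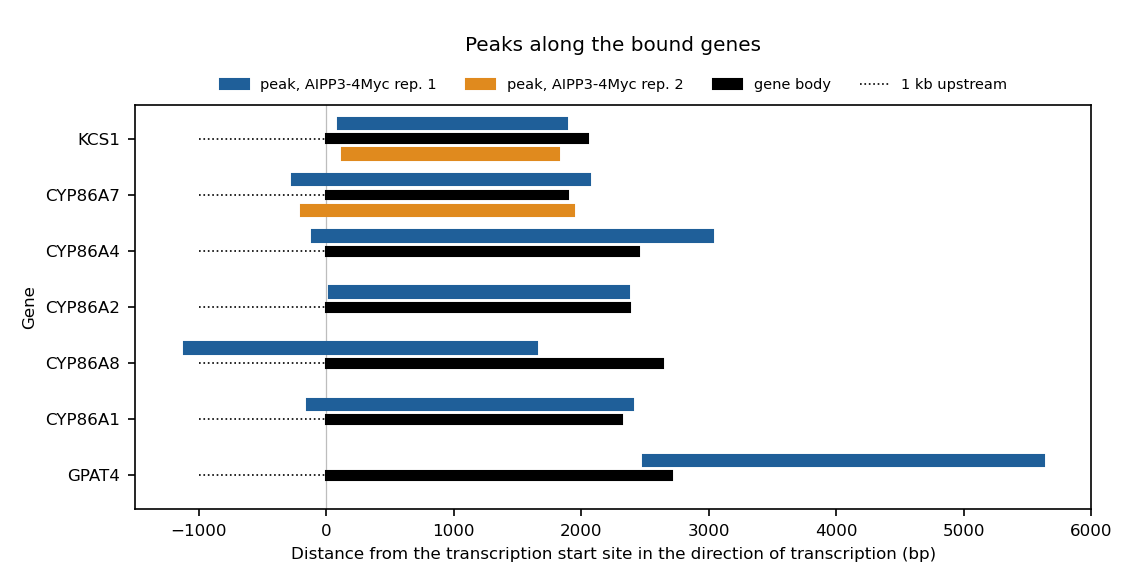
Extent of each peak relative to the gene it overlaps, as distance from the TSS in bp along the direction of transcription, for AIPP3-4Myc replicates 1 and 2. The KCS1 peaks begin 95 and 122 bp after the TSS, the CYP86A8 peak begins at -1117 bp, and GPAT4 is met only at its far end.

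Over the 7 genes bound in AIPP3-4Myc replicate 1, the median share of the gene under the peak was 98.9%, and 4 genes (57.1%) had at least 90% covered. Over all 1403 protein-coding genes bound in that library the median was 68.0%, and 502 (35.8%) had at least 90% covered. In AIPP3-4Myc replicate 2 the median was 91.6% for the 2 cuticle genes and 70.5% for all 626 bound genes. The median midpoint lay 1128 bp from the TSS for the cuticle genes in replicate 1, beside 584 bp for all bound genes, and 924 bp in replicate 2, beside 794 bp. The 7 genes of replicate 1 include GPAT4, which shares the CYP86A4 peak and has its midpoint at 4059 bp. Their median length was 2381 bp, beside 1938 bp for all protein-coding genes bound in that library. For the 2 genes bound in both, the median midpoint averaged 935 ± 14.8 bp from the TSS (SD, n = 2 libraries). These values are a description of few genes and were given no test.

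GPAT4 (AT1G01610), an acyltransferase that places hydroxylated chains on glycerol, was counted as bound through the peak of its neighbour. It lies tail to tail with CYP86A4 at chr1:221642-224351 on the minus strand, 355 bp apart. The shared replicate 1 peak entered its last 224 bp, or 8.27% of the gene, and the peak midpoint lay 4059 bp from its TSS, beyond the gene. This was the smallest overlap among the genes inside the rule, and the gene was not counted when the midpoint had to lie in the target region. The nearest replicate 2 peak was 31324 bp away. GPAT8 (AT4G00400), which acts alongside GPAT4 in leaf cutin, lies 10929 bp from CYP86A2 and had no peak. GPAT6 (AT2G38110), an enzyme of floral cutin, had none either.

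BDG1 (AT1G64670), the extracellular BODYGUARD protein needed for an intact cuticle, stood just outside the rule. A replicate 1 peak (chr1:24028758-24030676, score 79.1) lay wholly beyond its TTS, with a gap of 66 bp, and touched the next gene, AT1G64660. DCR (AT5G23940), an acyltransferase of cutin assembly, had a replicate 1 peak 1535 bp upstream of its target region (chr5:8082402-8083764, score 153) that touched AT5G23950. WSD1 (AT5G37300), a wax ester synthase, had one 4134 bp upstream of its region (chr5:14761147-14762291, score 88.9). These 3 were the only unbound cuticle genes with a replicate 1 peak within 5 kb, and none of the unbound genes had a replicate 2 peak that near. Across the 39 genes unbound in replicate 1 the nearest peak was 0.0660 to 210 kb away, with a median of 38.0 kb. In replicate 2 it was 8.49 to 523 kb away over 44 genes, with a median of 62.9 kb.

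The last cutin gene without a peak was HTH (AT1G72970), known as HOTHEAD, which prevents organ fusion. In wax synthesis the alkane branch showed no peak at CER1 (AT1G02205), CER3 (AT5G57800) or the alkane hydroxylase MAH1 (AT1G57750), and the alcohol branch none at the acyl-CoA reductase CER4 (AT4G33790). The acyl-CoA synthetases LACS1 (AT2G47240) and LACS2 (AT1G49430), which activate chains for wax and cutin, had none. Lipid export was without a peak at the transporters ABCG11 (AT1G17840) and ABCG12 (AT1G51500) and at the surface lipid transfer proteins LTPG1 (AT1G27950) and LTPG2 (AT3G43720). The wax regulators MYB96 (AT5G62470), MYB94 (AT3G47600) and MYB30 (AT3G28910) and the cutin regulators MYB16 (AT5G15310) and MYB106 (AT3G01140) had none. Of all unbound cuticle genes, only LACS2 had a peak within 10 kb in both AIPP3-4Myc libraries, 9342 and 9383 bp past its TTS at AT1G49450.

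A further 46 genes of cuticle, suberin and very-long-chain lipid synthesis that are not on the list were taken from textbook knowledge. Of these 1 (2.17%) was bound in AIPP3-4Myc replicate 1 and none in replicate 2, against none in Col-0. Of all protein-coding genes 5.11% were bound in replicate 1 and 2.28% in replicate 2. The further genes were also chosen with results of these data known, so nothing is read from these shares. The bound gene was FACT (AT5G63560), a caffeoyl transferase that acts on the fatty alcohols of suberin-associated wax. Its replicate 1 peak (chr5:25449298-25451487) had a score of 70.6, rank 498, covered 100% of the gene and had its midpoint 1081 bp from the TSS. The peak also touched the target region of the coding gene AT5G63570.

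The 5 CYP86A genes are related in sequence, and a stretch under their peaks is given to show how far. The lines hold 120 bases of coding sequence aligned without gaps, and capitals mark the 53 positions at which all 5 genes carry the same base. The stretches are chr1:23633238-23633357 minus for CYP86A7, chr1:219904-220023 plus for CYP86A4, chr4:161691-161810 plus for CYP86A2, chr2:18913468-18913587 minus for CYP86A8 and chr5:23767295-23767414 minus for CYP86A1, from the same assembly.
CYP86A7: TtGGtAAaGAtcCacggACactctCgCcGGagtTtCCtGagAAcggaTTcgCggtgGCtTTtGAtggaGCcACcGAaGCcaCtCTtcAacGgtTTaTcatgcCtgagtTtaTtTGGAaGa
CYP86A4: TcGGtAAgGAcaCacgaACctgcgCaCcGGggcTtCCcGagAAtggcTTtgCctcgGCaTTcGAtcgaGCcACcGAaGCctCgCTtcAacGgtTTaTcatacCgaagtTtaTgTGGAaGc
CYP86A2: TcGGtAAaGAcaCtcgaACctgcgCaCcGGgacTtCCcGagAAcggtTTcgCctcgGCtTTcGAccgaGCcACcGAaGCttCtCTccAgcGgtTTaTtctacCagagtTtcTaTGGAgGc
CYP86A8: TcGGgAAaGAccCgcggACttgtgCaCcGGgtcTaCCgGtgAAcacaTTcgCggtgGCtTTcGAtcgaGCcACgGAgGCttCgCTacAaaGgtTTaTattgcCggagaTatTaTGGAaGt
CYP86A1: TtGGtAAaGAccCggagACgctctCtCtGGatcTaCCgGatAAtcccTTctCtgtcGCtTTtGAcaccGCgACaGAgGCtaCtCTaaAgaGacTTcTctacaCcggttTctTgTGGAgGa
All 5 stretches lay wholly under a peak of AIPP3-4Myc replicate 1, and only that of CYP86A7 lay under a peak of AIPP3-4Myc replicate 2. Over all bases aligned between the coding sequences, the 10 CYP86A pairs were 65.4 to 83.4% identical, with a median of 71.2%. Bases opposite a gap were left out of this and the following shares. The closest pair, CYP86A4 and CYP86A2, shared no identical run longer than 50 bp. Reads that map to more than 1 of these genes could place signal at the wrong copy, and their part in the peaks was not tested. The CYP86A genes were 58.5 to 63.1% identical to the unbound relatives CYP86B1 (AT5G23190) and AT5G08250. KCS1 was 59 to 68.4% identical to the other listed KCS genes, closest to the unbound KCS2. CYP86A1, the most distant of its subfamily, was 65.4 to 67.8% identical to the other CYP86A genes.

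**Figure D4:**
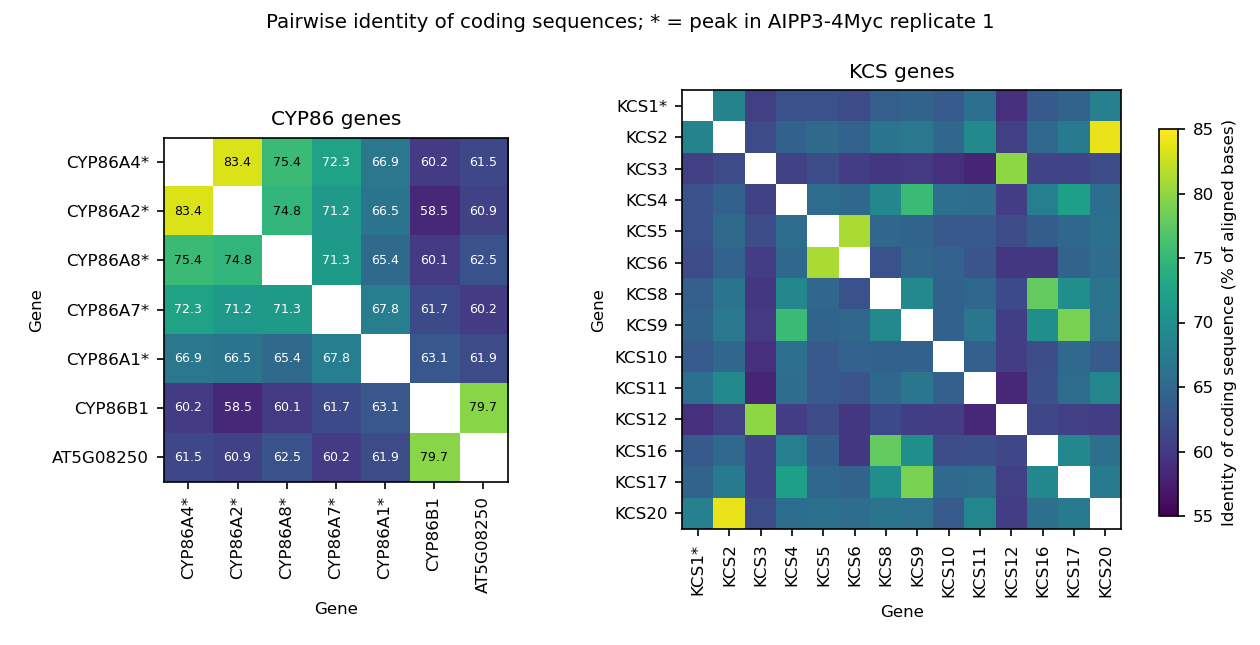
Percent identity of aligned coding sequence for pairs of CYP86 genes (left) and KCS genes (right), with an asterisk for genes bound in AIPP3-4Myc replicate 1. The 10 pairs among the bound CYP86A genes range from 65.4 to 83.4%, and KCS1, the only bound gene at right, reaches at most 68.4%.

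Base composition and exon number were compared between bound and unbound genes as a description. GC made up 45.9 to 52.9% of the coding sequence (median 49.3%) in the 7 genes bound in AIPP3-4Myc replicate 1 and 38.4 to 51.5% (median 44.7%) in the 39 unbound genes. The ranges overlapped, and unbound GPAT6 (51.5%), LTPG2 (51.4%) and LTPG1 (50.2%) exceeded all bound genes except CYP86A2 (52.9%) and, for LTPG1, CYP86A4 (50.3%). The median was 46.4% over all bound protein-coding genes and 44.1% over all protein-coding genes. Over the whole gene GC was 41.9 to 47.0% in the bound genes and 32.1 to 42.8% in the unbound ones, with CYP77A6 (42.8%) at the top. Genes with 1 or 2 coding exons made up 6 of the 7 bound genes (85.7%) and 18 of the 39 unbound genes (46.2%), beside 51.8% of all bound and 38.8% of all protein-coding genes. Among the 13 unbound KCS genes, 12 (92.3%) had 1 or 2 coding exons. By step, median coding GC was 49.0% in cutin and suberin, 45.1% in elongation and 41.4% in wax genes. The part of GC content and gene structure in the peaks was not tested.

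**Figure D5:**
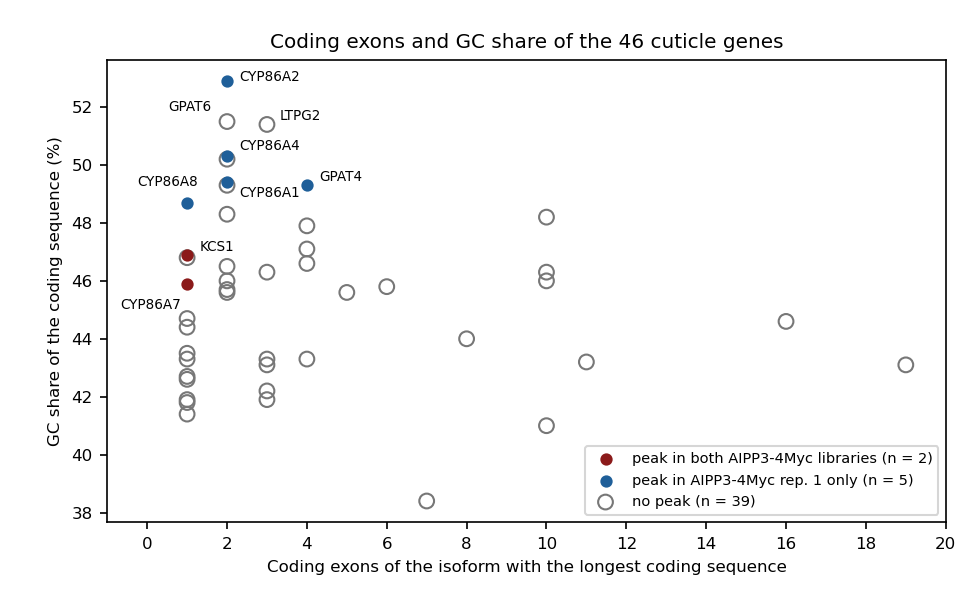
GC share of the coding sequence (%) against the number of coding exons for the 46 cuticle genes, coloured by the libraries with a peak. Bound genes lie between 45.9 and 52.9% GC, and open circles for unbound genes extend from 38.4 to 51.5%, into the same range.

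The 1 kb upstream of each TSS was searched on both strands for motifs known from Polycomb targets and epidermal genes, with every start position counted, so that matches in a repeat can overlap. GAGAGA occurred upstream of 2 of the 7 genes bound in AIPP3-4Myc replicate 1 (28.6%), 20 of the 39 unbound genes (51.3%), 52.7% of all bound protein-coding genes and 57.1% of all protein-coding genes. The telobox AAACCCTA occurred upstream of 2 bound genes (28.6%), 6 unbound genes (15.4%), 10.3% of all bound protein-coding genes and 12.4% of all. Both motifs occurred upstream of the same pair, CYP86A2 with 3 GAGAGA matches and 1 telobox and CYP86A8 with 1 and 2. The L1 box, an epidermal element, was searched in its forms TAAATGCA and TAAATGTA. The forms occurred upstream of 7 (17.9%) and 4 (10.3%) unbound genes and of no bound gene, beside 6.41% and 10.7% of all bound protein-coding genes and 5.93% and 10.5% of all. A match is only a description of the letters in this window.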

How the data were processed

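One peak list per library was deposited, for 2 AIPP3-4Myc and 1 Col-0 ChIP-seq libraries. As the study's methods state, reads were mapped by the authors to TAIR10 with Bowtie2 (version 2.2.8) and peaks were called with MACS (version 1.4), both at default settings. Whether MACS was given a control was not stated. The deposited score is the authors' MACS peak score, which is 10 times the negative log10 of its p-value, so that 50 corresponds to 1e-05. The lists give no reads, and peaks called on a deeper library can be more numerous, wider and higher in score.

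The 46 genes, their steps and the 46 further genes were chosen with earlier results of these data known, and every gene matched the TAIR10.1 annotation. The target region follows the study, the minimum overlap of 1 bp was set here, and the ChIPseeker assignment of the study was not used. Coordinates are 1-based. Genes bound in both libraries were named in full, those bound in 1 library and those with a peak within 5 kb with fewer values. Nearer details of CYP86A genes, FACT and LACS2 were added after the values were seen. Coding sequences of the isoform with the longest coding sequence were aligned globally with Biopython 1.88, without a penalty for gaps at the ends. Identity was taken over the aligned bases alone. Tables were handled with pandas 2.3.3 in Python 3.11.15. The overlap routine was tested on simulated peaks. Alternatives were a score of at least 100, an overlap of at least 200 bp, the peak midpoint, the gene body alone, the nearest TSS, removal of peaks that overlap Col-0 peaks, an equal number of peaks per AIPP3-4Myc list, and leaving out each AIPP3-4Myc library.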

Additional observations from a re-analysis of the deposited data

How the results depend on the processing

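Under alternatives, 157 values were recomputed for 23 results, and 16 moved. A count was taken as moved when it changed by more than 1.5 times or to or from 0. A position or percentile was taken as moved when it shifted by at least the SD of the 2 AIPP3-4Myc libraries. Of the 141 values that did not move, 83 were counts of 0 that stayed at 0, which most of the alternatives could not raise. A score of at least 100 left 2 cuticle genes bound in AIPP3-4Myc replicate 1, with 1 of them a cutin gene, 0 in replicate 2, and 0 in both for all genes, for elongation and for cutin. It also left 1 bound CYP86A gene and 0 of the further pathway genes. The position of peaks bound in both could not be given under it. Of all protein-coding genes 1.31% were then bound in replicate 1, 0.685% in replicate 2 and 0.496% in both. Reducing replicate 1 to its 430 highest scores left 3 bound cuticle genes (KCS1, CYP86A2 and CYP86A7), 2 of them cutin genes and 2 of the CYP86A subfamily, and 0 further pathway genes, beside 2.36% of all protein-coding genes. Leaving out each AIPP3-4Myc library in turn gave 2 to 7 genes bound in what remained, 1 to 6 of them of cutin or suberin synthesis. The median midpoint was then 924 to 1128 bp. Measured at the first base of the peak, the position for the genes bound in both was -62.2 bp from the TSS. The nearest TSS alone gave 5 genes in replicate 1, without CYP86A2 and GPAT4, beside 3.09% of all protein-coding genes, and a midpoint inside the target region gave 6, without GPAT4, beside 3.77%. No paired analysis was possible because Col-0 has 1 library and no test was made. Depth is unknown for every list, and the numbers of bound genes were not set against it. The CYP86A alternatives were chosen after seeing the data.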
